A study of Mus musculus with 6 samples.

Results

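Caveolae and endothelial vesicle genes were examined in whole-brain RNA of mouse embryos at E18.5, shortly before birth, with 3 wild-type and 3 Foxf2 mutant samples and 1 Affymetrix array per sample. The genes were Cav1, Cav2, Cavin1, Cavin2, Plvap, Ehd2, Ehd4 and Pacsin2, taken by name, and every probe set annotated to exactly 1 of them was used. Of the 8 genes, 7 had such a probe set, among 18193 singly named genes on the array, and together they had 16 of the 45037 fitted probe sets. Pacsin2, a membrane-bending F-BAR protein of caveolae, had no singly named probe set and is not analysed here. Both groups were on a C57/bl6 background and carried no other allele or treatment that the labels give. The labels do not describe the Foxf2 mutation, and they do not say whether an array held 1 embryo or several or whether embryos shared a litter. The p-values therefore measure the spread between these samples, which may be partly technical.

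Caveolae are flask-shaped pits of the plasma membrane that bud into vesicles. Caveolins insert into the membrane as oligomers, cavins form a coat around them, and EHD proteins are ATPases that hold the pit at the cell surface. Endothelial cells use such vesicles to carry proteins across the vessel wall, and a low number of them is part of the blood-brain barrier. Plvap builds the thin diaphragms that span caveolae and fenestrae, and it is known to be switched off as brain capillaries mature while it stays on in fenestrated vessels such as those of the choroid plexus and the pituitary.

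Foxf2 encodes a forkhead transcription factor of brain pericytes. On its brighter probe set it read 18.6, 24.4 and 13.8 on the wild-type arrays and 8.06, 3.31 and 7.57 on the mutant arrays, so every mutant array lay below every wild-type array. This probe set was too dim to be tested, and it is not known whether it lies in a part of the gene that the mutation alters. Some single arrays stood apart. The summed intensity of 5 skeletal muscle markers was 1139 on mutant array 3 and at most 98.8 on the other arrays. The sum of 4 pituitary markers was 1907 on wild-type array 3, 266 on mutant array 3 and at most 63.6 elsewhere. Mutant array 2 was the single array with Y-linked Eif2s3y signal, at 260 against at most 2.12, and Xist, from the inactive X chromosome, read 13.0 on it. Xist read 1956 to 2186 in wild-type brains, 1002 on mutant array 1 and 2400 on mutant array 3, so the groups were not matched for sex. The range with single arrays left out is given for each tested probe set, with the arrays that gave its ends.

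None of the 7 measured genes passed the threshold in either direction. Differences are mutant minus wild type on the scale log2(intensity + 16), which understates the change of dim probe sets, and they were tested with limma across all probe sets. Of the 16 probe sets, 10 lay above the filter on dim signal (an intensity of about 13.2) and were tested, at least 1 for each gene. At a Benjamini-Hochberg adjusted p of 0.05, 0 of these 10 passed, against 0.389% of the 27022 tested probe sets. At an unadjusted p under 0.05, 2 of the 10 read higher in the mutant, 1 probe set each of Cav1 and Ehd2, and 0 read lower. The corresponding shares of all tested probe sets were 7.76% higher and 5.79% lower. The median log2 difference of the 10 was 0.12, with a range of -0.11 to 0.46, beside a median of -0.0065 over all tested probe sets. Mutant arrays had the higher median intensities, and after median centring these 2 medians were 0.06 and -0.06. The spread between arrays of a group was close to that of the array as a whole, with a median pooled SD of 0.12 log2 units for the 10 and 0.13 for all tested probe sets.

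**Figure D1:**
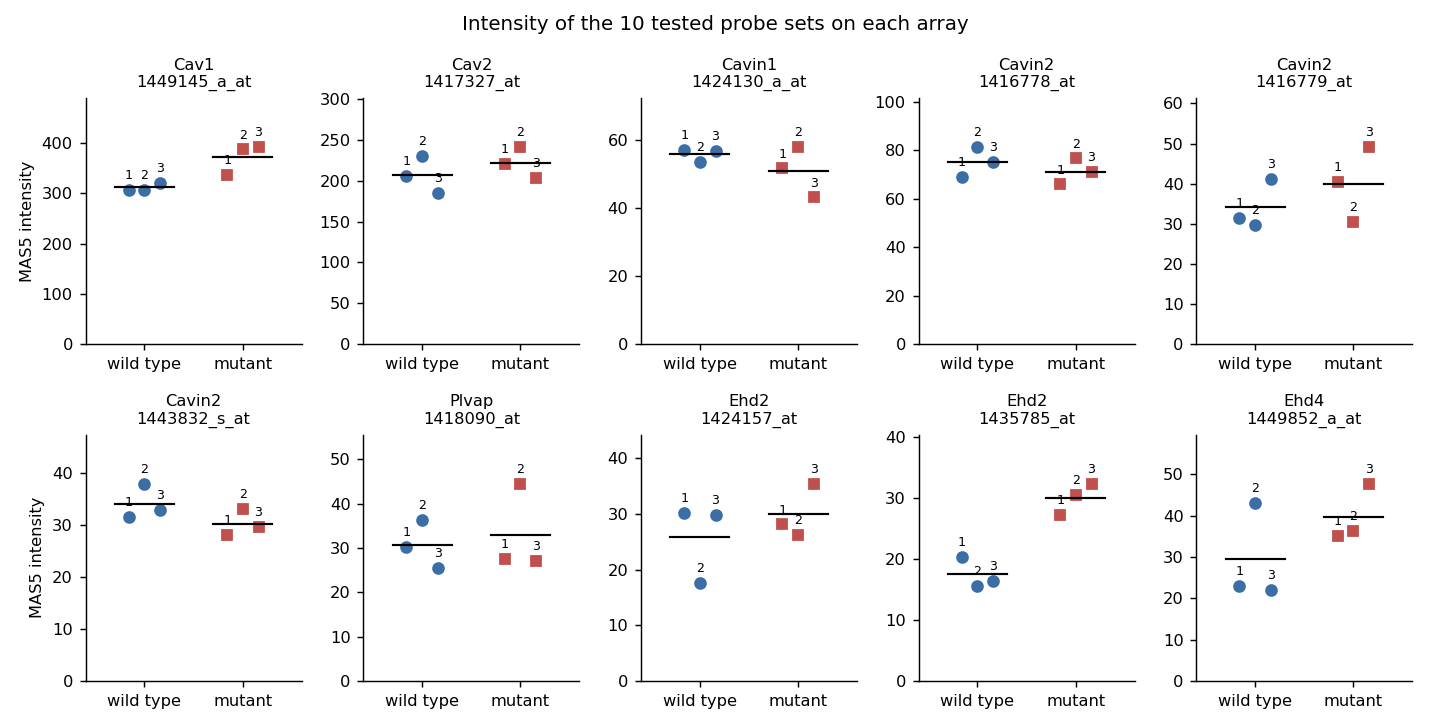
MAS5 intensity (linear axis from 0) of the 10 tested probe sets on the 3 wild-type arrays (circles) and 3 mutant arrays (squares), numbered by replicate, with the group mean as a line. The groups separate without overlap, with the mutant higher, for Cav1 and for Ehd2 probe set 1435785_at, and they overlap in the other 8 panels. Of all tested probe sets, 10.9% separated in this direction.

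Cav1 encodes caveolin-1, the structural protein without which endothelial caveolae do not form. Its single probe set, 1449145_a_at, read 307, 307 and 321 on the wild-type arrays and 337, 387 and 391 on the mutant arrays. The lowest mutant array, array 1, was still above the highest wild-type array. The groups did not overlap in this direction for 10.9% of all tested probe sets. Wild-type brains averaged 312 ± 8.09 (SD, n = 3) and mutant brains 372 ± 30.3 (SD, n = 3), a fold of 1.18 with a 95% interval of 1.05 to 1.33. The log2 difference of 0.24 ± 0.08 (SE) did not pass the threshold (limma, unadjusted p = 0.0118, adjusted p = 0.227). In size it exceeded the differences of 82.2% of tested probe sets. It stayed between 0.19 and 0.31 under the alternatives run, with adjusted p from 0.153 to 0.514. With single arrays left out it ran from 0.20 without mutant array 3, the array with muscle transcripts, to 0.31 without mutant array 1.

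Cav2 encodes caveolin-2, which joins caveolin-1 in the same oligomers, and its gene lies next to Cav1 on chromosome 6. Its brighter probe set, 1417327_at, read 206, 230 and 185 on the wild-type arrays and 221, 241 and 203 on the mutant arrays. The groups overlapped, and replicate 2 was the highest and replicate 3 the lowest in each. The log2 difference was 0.09, with a 95% interval of -0.13 to 0.31 (limma, adjusted p = 0.728). The data thus bound a change of Cav2 between 0.914-fold and 1.24-fold at that confidence. The difference moved with single arrays, from 0.02 without wild-type array 3 and 0.03 without mutant array 2 to 0.17 without wild-type array 2. The other Cav2 probe set, 1425955_at, was below the filter, with means of 8.97 ± 1.28 and 10.4 ± 8.24 (SD, n = 3 each). Whether the Cav1 and Cav2 differences differ from each other was not tested.

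The bases around the start of Cav1 are shown because it was 1 of the 2 genes with a probe set whose groups did not overlap, and because Foxf2 is a DNA-binding forkhead factor. RefSeq gave 2 Cav1 starts, and the first in the direction of the gene is printed. Its window runs from 250 bases before to 50 after the RefSeq start, at chr6:17306085-17306384 on the plus strand of GRCm38.p6. Capitals mark GC boxes, here as CCGCCC, the reverse complement of GGGCGG.
Cav1: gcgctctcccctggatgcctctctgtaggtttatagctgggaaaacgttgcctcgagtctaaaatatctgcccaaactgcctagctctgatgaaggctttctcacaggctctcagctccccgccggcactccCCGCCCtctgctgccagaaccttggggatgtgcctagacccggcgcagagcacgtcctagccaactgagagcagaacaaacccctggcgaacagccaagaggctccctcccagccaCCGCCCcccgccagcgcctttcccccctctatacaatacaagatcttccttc
This window held 2 GC boxes, 13 CpG dinucleotides and 59.3% G and C, where the median over all 32851 promoter windows was 7 CpG and 52.7%. The window of the second start, at chr6:17307390-17307689, held 0 GC boxes, 16 CpG and 62.3% G and C. A GC box on either strand was in 35.7% of all windows. The forkhead core GTAAACA was searched on both strands and was in 3.65% of all windows. It was in 0 of the 11 windows that RefSeq starts gave for Cav1, Cav2, Cavin1, Cavin2, Ehd2, Ehd4 and Pacsin2, which says only that these letters are not in these windows. GC boxes were in 7 of the 11. The windows of the 2 Cavin1 starts overlap almost wholly and share 1 GC box, which is counted in both.

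Cavin1 and Cavin2 encode coat proteins of caveolae, of which cavin-1 is needed for the pit to form and cavin-2 shapes it. Cavin1 read 57.1, 53.7 and 56.9 on the wild-type arrays and 51.8, 58.0 and 43.3 on the mutant arrays with probe set 1424130_a_at. Mutant array 2 was the highest of all 6 and mutant array 3 the lowest. The log2 difference was -0.11 with a 95% interval of -0.38 to 0.16 (limma, adjusted p = 0.744), and it ran from -0.18 without mutant array 2 to -0.02 without mutant array 3. The other Cavin1 probe sets, 1421431_at and 1453891_at, were below the filter, with group means between 2.64 and 6.46.

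Cavin2 had 3 tested probe sets, and they did not share a direction. The brightest, 1416778_at, read 68.9, 81.3 and 75.0 on the wild-type arrays and 65.9, 76.6 and 71.0 on the mutant arrays. Its log2 difference was -0.06, with an interval of -0.30 to 0.17, and it ran from -0.11 without wild-type array 1 to -0.01 without wild-type array 2. Probe set 1443832_s_at read 31.6, 37.9 and 32.9 against 28.1, 33.1 and 29.6, a difference of -0.11 with an interval of -0.40 to 0.17 and a range from -0.16 without mutant array 2 to -0.06 without wild-type array 2. In both, replicate 2 was the highest array of its group and the groups overlapped. Probe set 1416779_at read 31.4, 29.7 and 41.2 against 40.5, 30.5 and 49.1, a difference of 0.16 with an interval of -0.21 to 0.52. That difference was 0.04 without mutant array 3, the array with muscle transcripts, 0.25 without wild-type array 3 and 0.28 without mutant array 2. There replicate 3 was the highest of each group, and mutant arrays 1 and 2 lay within the wild-type range. Probe sets of suffix _s_at can match transcripts of more than 1 gene. Adjusted p for the Cavin2 probe sets ran from 0.720 to 0.837 (limma). Neither a higher nor a lower Cavin2 level can be called from them.

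Plvap, the diaphragm gene, has its single probe set 1418090_at. It read 30.2, 36.4 and 25.5 on the wild-type arrays and 27.5, 44.5 and 27.0 on the mutant arrays. The highest value was that of mutant array 2, while mutant arrays 1 and 3 lay inside the wild-type range. The means were 30.7 ± 5.47 (SD, n = 3) and 33.0 ± 9.94 (SD, n = 3), and the log2 difference was 0.06 with a 95% interval of -0.33 to 0.44 (limma, adjusted p = 0.914). The interval corresponds to folds from 0.797 to 1.36. The sign rested on single arrays, since the difference was -0.10 without mutant array 2 and -0.02 without wild-type array 3, and at most 0.14, without wild-type array 2. Wild-type array 3, with the most pituitary signal, had the lowest Plvap reading. The summed choroid plexus markers, 6 of 6 found, were 6028 to 6735 in wild-type brains and 6842 to 7146 in mutant brains, with Ttr, the thyroid hormone carrier of that epithelium, making up most of it. The part of choroid plexus or pituitary tissue in the Plvap values was not tested.

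Ehd2 encodes the ATPase that rings the neck of caveolae, and it had 5 probe sets, all with a higher mean in the mutant. Probe set 1435785_at read 20.4, 15.6 and 16.4 on the wild-type arrays and 27.2, 30.6 and 32.3 on the mutant arrays. The groups did not overlap, and the lowest mutant value was above the highest wild-type value. The means were 17.5 ± 2.58 (SD, n = 3) and 30.0 ± 2.61 (SD, n = 3). The log2 difference of 0.46 ± 0.13 (SE), a fold of 1.38 with a 95% interval of 1.12 to 1.69, did not pass the threshold (limma, unadjusted p = 0.00618, adjusted p = 0.181). It exceeded 97.1% of tested probe sets in size. The intensities themselves had a ratio of 1.72. The size depended on the offset, with 0.75 at offset 1 and 0.21 at offset 64, and adjusted p ran from 0.128 to 0.50 over the alternatives. With single arrays left out the difference ran from 0.42 without wild-type array 2 to 0.52 without wild-type array 1, and it was 0.43 without mutant array 3.

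The other Ehd2 probe sets were less clear. The tested 1424157_at read 30.2, 17.6 and 29.9 on the wild-type arrays and 28.1, 26.3 and 35.4 on the mutant arrays. These values overlapped, and wild-type array 2 was the lowest. The difference was 0.14 with an interval of -0.23 to 0.52 (limma, adjusted p = 0.753), and it ran from -0.0081 without wild-type array 2 to 0.22 without wild-type array 1, with 0.06 without mutant array 3. The remaining 3, 1459823_at, 1427729_at and 1424158_at, lay below the filter and overlapped between groups. Their differences were 0.21, 0.11 and 0.25, and each interval included 0. Probe sets of 1 gene on the same arrays are not replicates, so their shared sign adds no sample.

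The window around the Ehd2 start is shown for the same reason as that of Cav1. It lies at chr7:15967486-15967785 on the minus strand of GRCm38.p6 and is printed in the direction of the gene, with GC boxes in capitals.
Ehd2: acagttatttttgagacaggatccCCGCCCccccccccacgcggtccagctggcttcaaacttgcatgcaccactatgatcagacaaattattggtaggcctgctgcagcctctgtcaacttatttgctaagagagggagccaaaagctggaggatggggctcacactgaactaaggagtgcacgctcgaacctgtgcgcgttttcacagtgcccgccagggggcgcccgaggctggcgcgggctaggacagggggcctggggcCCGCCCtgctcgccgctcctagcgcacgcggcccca
It held 2 GC boxes, 18 CpG dinucleotides and 62.0% G and C. No value here links either window to the array signals.

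Ehd4 encodes a related ATPase of endosomes and caveolae. Probe set 1449852_a_at read 23.0, 43.1 and 22.1 on the wild-type arrays and 35.2, 36.3 and 47.7 on the mutant arrays. Wild-type array 2 lay above mutant arrays 1 and 2, so the groups overlapped. The means were 29.4 ± 11.9 (SD, n = 3) and 39.7 ± 6.92 (SD, n = 3). The log2 difference of 0.32 had a 95% interval of -0.11 to 0.75 (limma, adjusted p = 0.508). It was 0.52 without wild-type array 2, 0.22 without mutant array 3 and 0.21 without wild-type array 3.

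**Figure D2:**
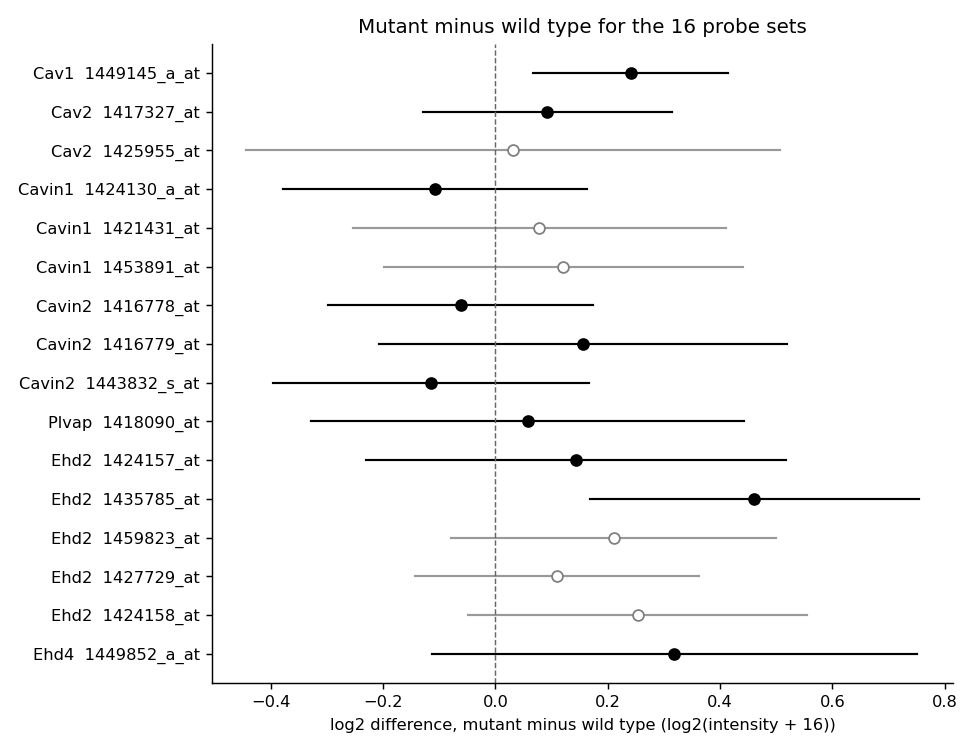
Log2 difference, mutant minus wild type, for the 16 probe sets (points) with 95% intervals (lines), on the scale log2(intensity + 16). Filled points were tested and open points lay below the filter on dim signal. The interval lies above 0 for Cav1 and for Ehd2 1435785_at, before adjustment for the number of probe sets tested, and includes 0 for the other 14.

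The relatives of these genes were looked at with 1 probe set per gene, the brightest. Of 7 caveolar relatives, 5 were tested and 0 passed the threshold (limma). At an unadjusted p under 0.05, 1 read higher, Pacsin3, the muscle-rich relative of Pacsin2. It read 17.2, 27.3 and 26.3 on the wild-type arrays and 37.4, 36.2 and 44.2 on the mutant arrays, without overlap. Its log2 difference was 0.49 (adjusted p = 0.208), while its other tested probe set had 0.26. Cavin3, a further coat protein, had a difference of 0.14, and the endosomal recycling genes Ehd1 and Ehd3 had -0.05 and 0.03. A dimmer Ehd1 probe set read lower without overlap, at 112, 109 and 110 against 90.0, 73.2 and 92.2, a difference of -0.32 (limma, unadjusted p = 0.0111, adjusted p = 0.223). The remaining Ehd1 probe sets overlapped between groups, with differences of -0.01 and -0.11. Pacsin1, the neuronal form, had 0.08. Cav3 and Cavin4, the muscle forms of caveolin and cavin, were below the filter, and Cav3 read 10.2 on mutant array 3 and at most 6.04 elsewhere.

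Caveolar partners and cargo gave 8 tested genes of 9, and 0 passed the threshold or had an unadjusted p under 0.05 (limma). Nos3, the endothelial nitric oxide synthase that caveolin-1 binds, had a log2 difference of -0.17, and Ror1, a receptor reported to scaffold caveolae, had 0.17. Dnm2, the dynamin that severs vesicles, had 0.04 on its brightest probe set and -0.12 to 0.34 on its other 5 tested ones. The highest of these, an _x_at probe set whose probes can match other transcripts, read 52.1, 54.6 and 57.8 against 76.1, 70.8 and 73.6 (limma, unadjusted p = 0.00777, adjusted p = 0.196). Both flotillins, membrane scaffold proteins unrelated to caveolins, were tested without passing, with Flot1 at -0.05 and Flot2 at 0.04.

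Receptors and regulators of transcytosis gave 9 tested genes of 12 listed, with 0 past the threshold (limma). At an unadjusted p under 0.05, 0 read higher and 2 lower, the lipoprotein receptor gene Lrp1 and the growth factor receptor gene Igf1r, with differences of -0.18 and -0.31. Other tested probe sets of these genes did not all read lower, with -0.15 to 0.25 for Igf1r and 0.04 for Lrp1. Lrp8, a related receptor, had -0.21 on its brightest probe set and -0.16 and -0.33 on its others. The last of these read 283, 272 and 265 against 235, 210 and 199 (limma, unadjusted p = 0.0026, adjusted p = 0.127). Tfrc, the transferrin receptor, had 0.29, with 639 on mutant array 3 and at most 368 on the other arrays. Mfsd2a, the lipid transporter that restrains vesicles in brain endothelium, read 160, 139 and 138 on the wild-type arrays and 130, 128 and 145 on the mutant arrays. These groups overlapped, and its difference of -0.10 did not pass (adjusted p = 0.683). Of 9 genes of permeability and endothelial activation, 6 were tested and 0 passed, with 3 reading higher and 3 lower. The largest tested differences were those of Icam2, an adhesion molecule, at -0.37 and Vwf, the clotting factor, at -0.35. Icam2 alone of the 6 had an unadjusted p under 0.05. Esm1, below the filter and not tested, read 5.13, 4.58 and 0.915 against 17.9, 12.9 and 7.79, a difference of 0.55. A dim Angpt2 probe set, also below the filter, went the other way. It read 5.66, 6.92 and 5.44 against 0.779, 1.12 and 0.307, a difference of -0.39, while the tested Angpt2 probe set had 0.08. Counting every tested probe set of these 5 lists, 0 passed the threshold. At an unadjusted p under 0.05, 1 of 11 read higher and 1 lower among the relatives, 1 of 16 higher among the partners and cargo, 0 of 3 among the flotillins, 3 of 21 lower among the transcytosis genes and 1 of 8 lower among the permeability genes.

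Most endothelial markers read lower in the mutant, without passing the threshold. Of 12 endothelial markers, 11 were found and tested, and 0 passed the threshold (limma). Of the 11, 8 read lower and 3 higher, where between 51% and 52% of all tested probe sets read lower. At an unadjusted p under 0.05, 3 of these markers read lower and 0 higher. Their summed intensity was 1455 to 1512 in wild-type brains and 1053 to 1191 in mutant brains, without overlap, and no marker of the list was at 0. Slco1c1, a thyroid hormone transporter, and Cldn5, a claudin of tight junctions, had the largest differences, -0.75 and -0.43, while Pecam1, a general endothelial adhesion molecule, had 0.02. Mean intensity fell from 384 to 224 for Slco1c1 and from 380 to 278 for Cldn5, which was most of the drop in the sum. The sum of 9 pericyte markers was 1410 to 1736 in wild-type brains and 1305 to 1541 in mutant brains, and that of 5 smooth muscle markers was 324 to 340 and 274 to 341. Of 8 tested pericyte markers 2, and of 3 tested smooth muscle markers 1, read lower at an unadjusted p under 0.05, and 0 passed the threshold (limma). Among tested markers, the largest pericyte differences were those of Atp13a5, an ATPase gene, at -0.51 and Rgs5, a regulator of G protein signalling, at -0.33. The largest of tested smooth muscle markers were Myl9, a myosin light chain, at -0.21 and Tagln, an actin-binding protein, at -0.03. Whole-brain RNA cannot tell fewer cells of a type from less RNA per cell, and caveolin-1 is also made by pericytes, smooth muscle and fibroblasts. The sum of 6 fibroblast and meningeal markers was 1801 to 2043 and 1899 to 2329. All 6 of them read higher in the mutant, as did 5 of 5 tested choroid plexus markers. In the lists for fibroblasts, choroid plexus, skeletal muscle, pituitary, erythroid cells, microglia, neurons and astrocytes, 0 tested markers passed and 0 had an unadjusted p under 0.05. Among these tested markers, the largest differences were 0.26 and 0.17 for the collagen genes Col1a1 and Col1a2. For the choroid plexus they were 0.21 and 0.17 (Clic6 and Kcne2), and for muscle 1.16 and 0.99 (Acta1 and Myh8). They were -1.21 and -0.53 for the hormone genes Gh and Pomc, and -0.37 and -0.36 for Alas2 and Hbb-y of red cells. For microglia they were 0.20 and 0.17 (C1qb and Cx3cr1), for neurons -0.19 and 0.12 (Map2 and Snap25) and for astrocytes 0.42 and 0.19 (Aqp4 and Slc1a3). The part of these cell types in the Cav1 and Ehd2 values was not tested.

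**Figure D3:**
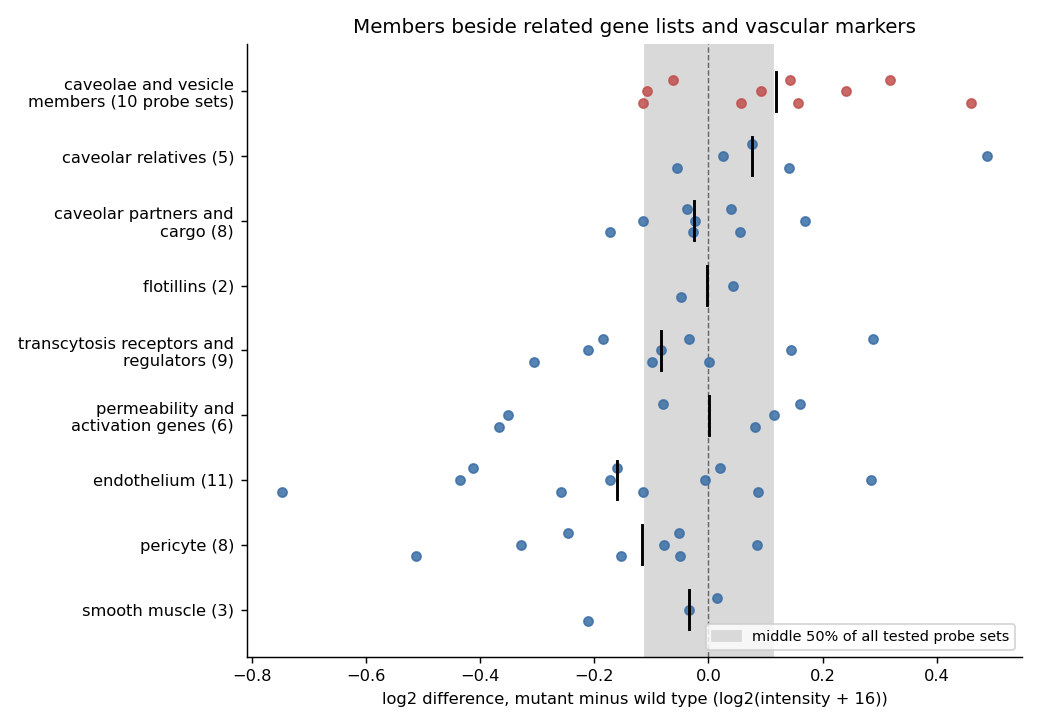
Log2 difference, mutant minus wild type, on the scale log2(intensity + 16), for the 10 tested member probe sets (red) and for the tested genes of 5 related lists and 3 vascular marker lists (blue, 1 probe set per gene, number in brackets). Black bars are medians and the grey band holds the middle 50% of all tested probe sets, from -0.11 to 0.11. The member median of 0.12 lies just above the band and the endothelial median of -0.16 below it. With 1 probe set per gene, as in the lists, the member median was 0.09, inside the band.

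The genes whose profile over the 6 arrays was most like that of Cav1 were Tmem134, Gnl3l and Fuca1. Likeness was the root mean square difference between centred log2 profiles, 0.02 for Tmem134, against a median of 0.19 over 12573 tested genes. For Plvap they were D130043K22Rik, Mfge8 and Tspan17, with 0.04 for the first of them and a median of 0.22. These are the closest of many genes over few arrays and are given as a description.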

How the data were processed

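Whole-brain total RNA of 6 samples was measured on Affymetrix arrays. The deposited values are intensities on a linear scale made by the authors with MAS5, per the submitters' processing notes, whose version is not given in the sources used here. The trimmed mean of each array (2% off each end) was 100, so no further scaling was done. The array medians still differed by group, at 23.1 to 23.6 in wild-type and 24.3 to 25.5 in mutant samples. Of the 105 probe sets past the threshold, 99 read higher in the mutant. No detection calls were used. Of 45101 probe sets, 64 controls were left out and 45037 fitted with limma 3.58.1 (R 4.3.3) after adding 16 and taking log2, using lmFit and a two-sided eBayes test with a mean-variance trend. Benjamini-Hochberg adjustment covered the 27022 probe sets whose mean log2 value was at or above the 40th percentile, and the threshold was 0.05. Probe sets were named from the platform annotation, where 34945 had 1 symbol. Promoter windows came from RefSeq, GRCm38.p6. In each other list, members past the threshold or otherwise the 2 largest differences above the filter were named, any member in the caveolar lists. Pecam1, Mfsd2a, Lrp1, Lrp8, Esm1, Angpt2 and Ttr, and Eif2s3y and Xist as array checks, were chosen for naming once their values were known. The members and lists were chosen with earlier results of these data known.

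On simulated data for this comparison with 45037 probe sets, 18.3% of log2 changes of 0.5 were called and 67.7% of those of 1. The number of arrays limits the precision.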

Additional observations from a re-analysis of the deposited data

How the results depend on the processing

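No member probe set passed the threshold in any of the 18 alternatives, counting 2 that were added after seeing the data: both arrays 3 left out, and the variance trend over tested probe sets. The count over all tested probe sets was 105. It became 181 with offset 1, 64 with offset 64, 52 without the filter, 167 with the filter at the 60th percentile, 56 with median centring, 0 without the variance trend, 12 with 1 probe set per gene, 0 without both arrays 3 and 225 with the variance trend over tested probe sets. With single arrays left out it ran from 0, without wild-type array 1 or 2 or mutant array 2 or 3, to 28 without mutant array 1 and 34 without wild-type array 3. The causes were not tested. The replicate block gave 220. Arrays sharing a number had deviations from their group mean correlated at 0.19, 0.13 and 0.09, where arrays with unlike numbers had -0.19 to 0.05. Deviations within a group sum to 0, so these 2 sets of correlations are not independent of each other. The labels do not say whether the numbers pair the embryos, and this was not tested. The main fit did not use the numbers. The block called 0 member probe sets.

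Cav1 and Ehd2 1435785_at kept their sign under all alternatives run. Among tested member probe sets signs turned for Plvap, to -0.02 without wild-type array 3 and -0.10 without mutant array 2, and for Ehd2 1424157_at, to -0.0081 without wild-type array 2. With single arrays left out, Plvap ran from -0.10 to 0.14 and this Ehd2 probe set from -0.0081 to 0.22. Below the filter, Cav2 1425955_at kept its sign in 12 of 17 alternatives and Cavin1 1421431_at in 16 of 17. Offset 1 took Ehd2 1424158_at from 0.25 to 0.998 and Cavin1 1453891_at from 0.12 to 0.69.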
